A study of Mus musculus with 6 samples.

Results

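The nuclear pore complex genes described here are 31 mouse genes, read as the rows with their symbols in a deposited count table of 24062 genes. They were chosen as known components of the complex, with 1 result of these data in view: Nup98 had been seen higher in K27R than in R26K eggs, so values of that contrast are given below as a description only. RNA was sequenced from MII eggs (arrested in metaphase II, before fertilization) in 6 libraries, 2 for each of 3 groups. All eggs came from superovulated 8-week-old females of the line HISRainbow;Figla-iCre, which joins coloured histone transgenes with a Cre under the promoter of the oocyte gene Figla. The H3.3 group expressed unmutated histone H3.3 joined to eGFP, the K27R group H3.3K27R-mCherry (lysine 27 replaced by arginine) and the R26K group H3.3R26K-eCFP (arginine 26 replaced by lysine). Each form had its own fluorescent tag, so tag and substitution cannot be told apart. The form an egg expressed was read from its colour by confocal imaging, and the number of eggs and females in a library, and the state of the endogenous H3.3 genes, are not stated in the sources used here.

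The nuclear pore complex is the channel through which proteins and RNA cross the nuclear envelope. Its scaffold is built from an outer ring, whose main unit is the Y-shaped Nup107-Nup160 complex, and an inner ring around Nup93, anchored to the membrane by transmembrane nucleoporins. Nucleoporins with phenylalanine-glycine repeats line the channel, filaments on the cytoplasmic face remodel exported mRNA, and a basket of Tpr, Nup153 and Nup50 hangs on the nuclear side. In an MII egg the envelope is broken down and the pores are disassembled, and several nucleoporins work at kinetochores and the spindle. The egg stores mRNA and protein from which pores are rebuilt when the pronuclei form after fertilization, at a time when there is little transcription.

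Levels are given as CPM (counts scaled to a common library size) with library totals scaled by TMM, a trimmed mean of the log ratios between libraries. Total counts were 10803477 to 12748821 in the 4 libraries of H3.3 and K27R, against 39603440 and 33786225 in R26K. All 31 members were among the 10667 genes that passed the expression filter. In a fit of only the H3.3 and K27R libraries 28 members passed it, and Nup133, Nup205 and Nup210 needed the R26K pair. The 12 egg markers had counts in every library, with summed levels of 29540 to 40600 CPM. Of 20 cumulus and granulosa markers the H3.3 libraries detected 4 and 13, the K27R libraries 13 and 4, and the R26K libraries 16 and 12. They summed to 964 to 2091 CPM, of which Serpine2 alone gave 940 to 1911 CPM. The 15 markers of other oviduct and blood cells summed to 26.6 to 174 CPM, of which Pecam1 alone gave 15.4 to 156 CPM. The libraries also differed in breadth. The H3.3 libraries detected 67.3% and 65.4% of the tested genes, the K27R libraries 90.2% and 66.2%, and the R26K libraries 96.9% and 97%. The part of depth, breadth and these markers in the results below was not tested.

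In R26K eggs 2 partners in the pore went in opposite directions. Nup98 fell about 10.8-fold and Rae1 rose about 11.2-fold against unmutated H3.3, and these were the only 2 of 31 members that passed the test. Nup98 carries the glycine-leucine-phenylalanine-glycine repeats that help to form the permeability barrier, and Rae1 is an mRNA export factor that binds to it. The Nup98 gene also encodes Nup96, a subunit of the outer ring that is cut from a common precursor. Counts per gene do not show which transcript forms were present, so they cannot be assigned to either protein.

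Nup98 had 1170.2 and 1463 CPM in H3.3 eggs, 1232 and 2492 CPM in K27R eggs and 129 and 114 CPM in R26K eggs. Both R26K libraries thus lay far below the other 4, which overlapped between H3.3 and K27R. The log2 fold change of R26K against H3.3 was -3.43 ± 0.40 (SE, n = 2 libraries per group), with an adjusted p = 0.0329 by edgeR's quasi-likelihood test. Rae1 was measured at 43 and 28.3 (H3.3), 49.5 and 60.6 (K27R) and 426 and 372 (R26K) CPM. Here both R26K libraries lay above the other 4, and the log2 fold change was 3.48 ± 0.41 (edgeR adjusted p = 0.0329). Of all tested genes 0.403% passed upward and 0.216% downward. The low R26K values of Nup98 were in view when the members were chosen, so nothing is read from the count of calls against that background, and its test against H3.3 uses the same R26K libraries. The labels do not say whether the libraries of a group came from separate females, and p-values measure only the spread between these libraries. These are bulk libraries, in which fewer cells of a type and less RNA per cell cannot be told apart.

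**Figure D1:**
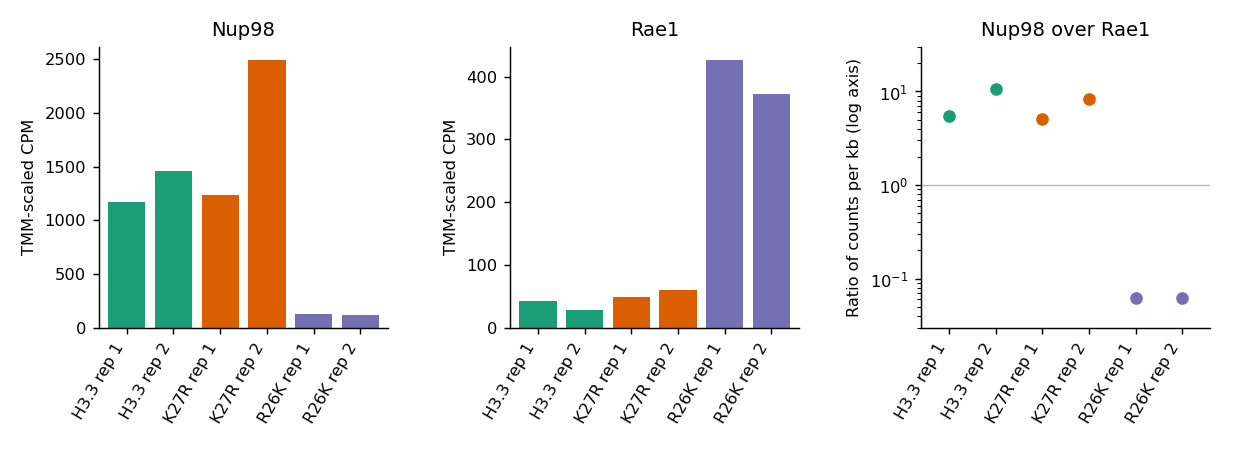
Levels of Nup98 and Rae1 in each library (bars, TMM-scaled CPM) and the ratio of their counts per kb of exon (points, log axis; the line marks 1), coloured by group (H3.3 green, K27R orange, R26K purple). Nup98 is at 114 and 129 CPM in R26K and above 1170 CPM elsewhere, and the ratio is above 5 in the H3.3 and K27R libraries and near 0.06 in R26K.

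The ratio of the pair does not depend on how libraries are scaled. Per kb of exon, Nup98 counts were 5.52 and 10.5 times those of Rae1 in H3.3 eggs, 5.04 and 8.34 times in K27R eggs, and 0.0615 and 0.0623 times in R26K. The order of the 2 mRNAs was therefore the reverse in R26K of that in the other 4 libraries. Of the summed CPM of all members, Nup98 alone held 21.1% and 24.5% in H3.3 eggs, 21.8% and 38.9% in K27R eggs, and 2.05% and 1.98% in R26K eggs. Rae1 held 0.474% to 0.947% in the H3.3 and K27R libraries and 6.76% and 6.45% in R26K.

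The 2 calls depended on which libraries entered the fit. Across 15 other settings the log2 fold change of Nup98 lay between -3.92 and -3.27 and that of Rae1 between 2.40 and 3.81, and each kept its call in 10. Both calls ended in a fit of only the H3.3 and R26K libraries (edgeR adjusted p = 0.0705 for both). Both also ended without H3.3 replicate 2 (0.0610 for Nup98 and 0.0606 for Rae1), without K27R replicate 1 (0.0610 and 0.115) and without K27R replicate 2 (0.0731 and 0.115). The K27R libraries enter this comparison only through the scaling, the filter and the estimate of spread.

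**Figure D2:**
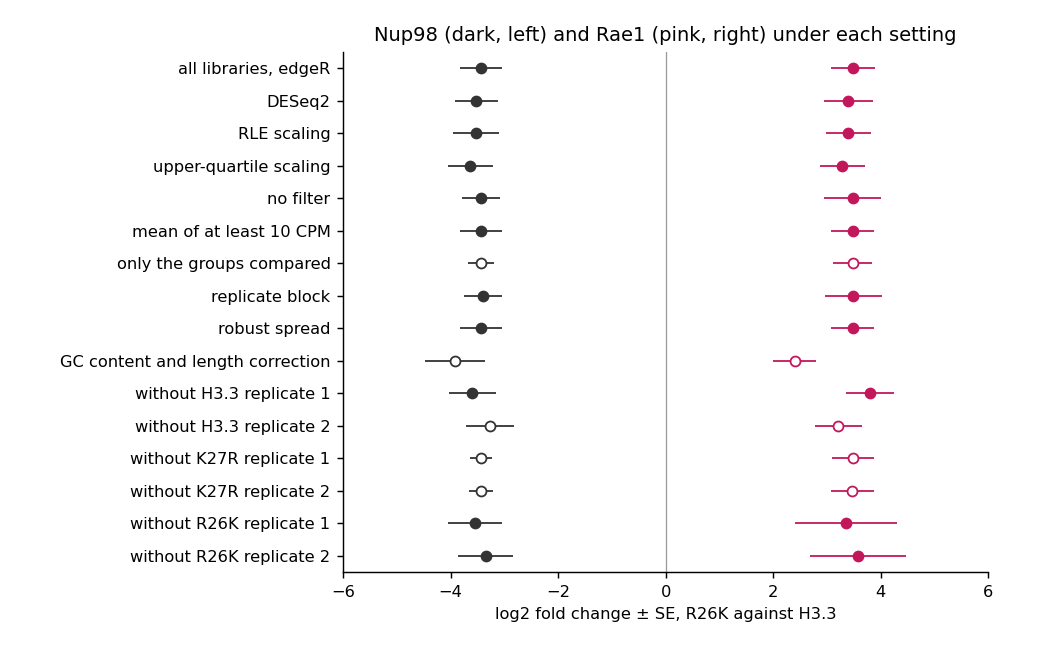
Log2 fold changes of R26K against H3.3 (x axis, with SE) for Nup98 (dark, left) and Rae1 (pink, right) under each setting (rows). Filled points have an adjusted p under 0.05 and open points do not; every Nup98 value lies between -3.92 and -3.27 and every Rae1 value between 2.40 and 3.81.

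Base composition was compared with the fold changes. The annotated transcript of Nup98 has 47.5% GC and that of Rae1 53.7%, where the median of tested genes was 49.3%. Across the 31 members the Spearman correlation of GC content with the log2 fold change of R26K against H3.3 was 0.501, and across 10589 tested genes it was 0.293; these points share the same libraries, and genes are not independent replicates. With each library corrected for GC content and length, the log2 fold change was -3.92 for Nup98 (edgeR adjusted p = 0.0718) and 2.40 for Rae1 (0.0929). The value of Nup98 was thus larger in size and that of Rae1 smaller than without the correction, and neither passed.

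Nup98 lies on chromosome 7 from 102119398 to 102210176 on the minus strand and Rae1 on chromosome 2 from 173000117 to 173015739 on the plus strand (GRCm38, the same assembly as mm10; GENCODE M21). Neither overlaps exons of another gene, and neither has a near-identical copy among annotated transcripts. The cDNA kit named in the labels starts from poly(A) tails, and in maturing oocytes the cytoplasmic polyadenylation element, a U-rich motif in the 3′ end of an mRNA, acts with the AAUAAA signal to set the tail. The stretches of 30 bases that hold these motifs at the annotated end are therefore shown for both genes and for 2 members that lay in the same directions in R26K, Nup35 (below) and Nup62 (above). Capitals mark TTTTAT or TTTTAAT and AATAAA or ATTAAA; the sequences are those of GENCODE transcripts, 5′ to 3′.
Nup98, from 100 bases before the end: tTTTTATTAAAaaatatatatatatatata
Nup98, the last 30 bases: aaaaaAATAAAATTAAAtgtttatagtatt
Rae1, from 90 bases before the end: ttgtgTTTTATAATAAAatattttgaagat
Nup35, the last 30 bases: tccaAATAAActttgtcaatTTTTATgtgc
Nup62, from 100 bases before the end: tcatgtctaTTTTATttctctgcactctat

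Among 27 members whose annotated 3′ untranslated region spans at least 100 bases, 7 had TTTTAT or TTTTAAT in the last 100 bases (Nup98, Rae1, Nup35, Nup37, Nup54, Nup62 and Ranbp2), a share of 25.9% against 21.3% of 9713 tested genes. AATAAA or ATTAAA was found in 25 of the 27. Of the 7 members with the element 4 (Nup98, Nup35, Nup37 and Ranbp2) had a negative log2 fold change in R26K against H3.3. The median of the 7 was -0.77. Of the 20 without it 4 were negative, with a median of 0.66. Over all tested genes the corresponding shares were 39.5% and 37.8%. The low R26K values of Nup98 were in view when the members were chosen, and Ranbp2 had no count in H3.3 replicate 2. Nothing is therefore read from the difference between the 7 and the 20. The ends used in eggs were not measured, and a match is a description of the annotated letters.

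The promoters of the 2 genes are shown because the pair moved in opposite directions, so that their letters can be compared. Each window runs from 250 bases before to 50 after a RefSeq start site (GRCm38.p6), 5′ to 3′ on the strand of the gene; RefSeq gives 2 adjoining windows for Nup98. Capitals mark CCGGAA (the core bound by ETS factors), GGGCGG (the Sp1 GC box), CCAAT and TGCGCA (the repeat unit of NRF1 sites) on either strand.
Rae1, chr2:172999867-173000166, plus strand: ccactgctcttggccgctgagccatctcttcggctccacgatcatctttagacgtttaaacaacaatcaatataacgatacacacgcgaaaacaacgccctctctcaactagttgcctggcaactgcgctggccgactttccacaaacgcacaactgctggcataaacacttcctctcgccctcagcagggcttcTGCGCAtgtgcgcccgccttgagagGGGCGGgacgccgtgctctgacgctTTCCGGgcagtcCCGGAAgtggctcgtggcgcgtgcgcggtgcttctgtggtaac
Nup98, chr7:102210117-102210416, minus strand: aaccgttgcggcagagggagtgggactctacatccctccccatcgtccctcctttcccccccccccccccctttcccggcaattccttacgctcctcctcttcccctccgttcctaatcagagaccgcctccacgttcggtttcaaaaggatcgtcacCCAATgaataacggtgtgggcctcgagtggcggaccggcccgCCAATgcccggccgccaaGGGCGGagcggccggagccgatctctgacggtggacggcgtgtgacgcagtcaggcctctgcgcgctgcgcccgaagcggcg
Nup98, chr7:102209818-102210117, minus strand: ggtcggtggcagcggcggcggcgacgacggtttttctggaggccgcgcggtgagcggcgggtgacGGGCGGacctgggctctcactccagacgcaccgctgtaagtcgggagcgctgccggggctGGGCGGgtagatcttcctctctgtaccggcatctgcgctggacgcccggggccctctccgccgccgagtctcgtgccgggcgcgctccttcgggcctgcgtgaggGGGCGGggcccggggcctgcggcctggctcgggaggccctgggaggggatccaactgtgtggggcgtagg

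The Rae1 window held 2 matches to CCGGAA, 1 GC box and 1 TGCGCA and no CCAAT. The upstream window of Nup98 held 2 CCAAT and 1 GC box, the downstream one 3 GC boxes, and neither held CCGGAA or TGCGCA. RefSeq windows were found for 27 members (30 windows). GGGCGG was present in 63.3% of them against 35.7% of 32841 windows in the table, CCGGAA in 33.3% against 14.9%, CCAAT in 40% against 37.4%, and TGCGCA in 13.3% against 7.76%. AAGATGGC, the core of YY1 sites, was in 13.3% against 2.75%, CACGTG, the E-box, in 13.3% against 7.15%, and TATAAA, the TATA box, in 10% against 13.6%. The median number of CpG in a window was 27.5 in members and 7 in the table. The table also holds promoters of genes that did not pass the expression filter. A match here is no evidence that a factor binds.

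The outer ring, with 9 members, held the 3 highest members per kb of exon by the mean of all libraries. Nup37, Sec13 and Nup85 had means of 179.5, 135 and 113 CPM per kb, above at least 96% of tested genes. The order differed by group. Nup98 stood above Nup85 in H3.3 (104.5 against 93.0) and K27R (147.8 against 99.2). In R26K Nup62 was the highest at 183.6, followed by Rae1 at 156.2 and Sec13 at 154.1, and Nup37 stood lower at 110.9. No member of the ring passed the test in R26K or K27R against H3.3. Nup37, a peripheral Y-complex subunit, stood at 595 and 885 CPM in the H3.3 pair, at 485 and 881 CPM in the K27R pair and at 441 and 297 CPM in the R26K pair. Both R26K libraries lay below the other 4, with a log2 fold change of -1.0 ± 0.40 against H3.3 (edgeR adjusted p = 0.223). Sec13, shared between the Y complex and the COPII coat of secretory vesicles, had 364 and 528 CPM in H3.3 eggs, 350.2 and 362 CPM in K27R eggs and 509 and 472 CPM in R26K eggs. Nup85, which pairs with Seh1l in the Y complex, was measured at 349 and 281 (H3.3), 443 and 228 (K27R) and 578 and 416 (R26K) CPM. For Sec13 the K27R pair lay just below the other 4 libraries, and both R26K values fell between those of the H3.3 pair. For Nup85 the R26K pair lay above the H3.3 pair, and the K27R pair overlapped both.

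Nup107, a core subunit of the stem, stood at 143 and 192 CPM in the H3.3 pair, at 261 and 155 CPM in the K27R pair and at 185 and 275 CPM in the R26K pair. Seh1l, which is also part of a complex that regulates growth signalling at the lysosome, was at 203 and 99.8 (H3.3), 201 and 149 (K27R) and 227 and 248 (R26K) CPM. Nup160 was at 46.4 and 44.5 (H3.3), 40.6 and 43.8 (K27R) and 77.8 and 65.6 (R26K) CPM. The R26K libraries lay above the other 4 for Seh1l and Nup160, and overlapped them for Nup107. Nup43 had 236 and 11.6 CPM in H3.3 eggs, 101 and 144 CPM in K27R eggs and 60.2 and 39.2 CPM in R26K eggs, and its H3.3 replicates differed 20.3-fold. Ahctf1, whose product ELYS binds chromatin and seeds new pores, was at 32.5 and 1.10 CPM in H3.3, where replicates differed 29.5-fold, 52.3 and 12.5 CPM in K27R eggs and 40.3 and 59.2 CPM in R26K eggs. Nup133 was the scarcest of the ring, with 0 and 178 counts (H3.3), 1 and 0 (K27R), and 275 and 172 (R26K, 7.46 and 5.20 CPM). For Nup43 and Nup133 the H3.3 pair spanned all values of the other groups. Exons of Ahctf1 overlap Kif28 and Gm10518, and those of Nup133 and Seh1l overlap antisense genes.

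**Figure D3:**
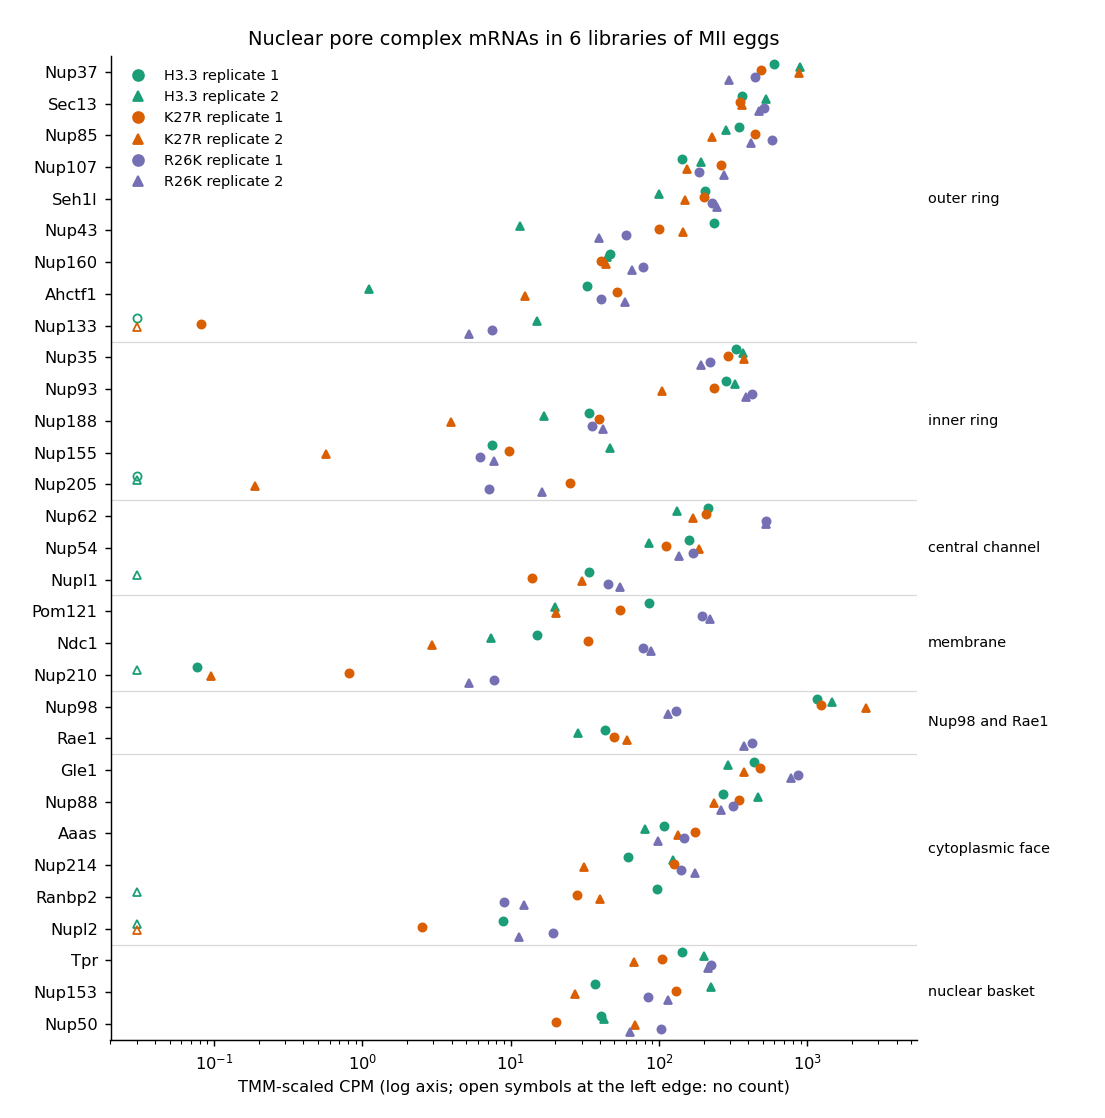
Level of each member in each library (x axis, TMM-scaled CPM on a log axis; symbols for the libraries as in the key), grouped by part of the pore. Open symbols at the left edge mark members without a count; Nup98 and Rae1 show the R26K libraries set apart in opposite directions.

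Inner ring genes spanned a wide range. Nup35 and Nup93 were abundant and Nup188, Nup155 and Nup205 scarce, although all 5 encode scaffold proteins. Nup35 was measured at 332 and 367 (H3.3), 293 and 374 (K27R) and 219.9 and 190.5 (R26K) CPM. Both R26K libraries lay below the other 4, with a log2 fold change of -0.77 ± 0.28 against H3.3 (edgeR adjusted p = 0.213). Nup93, the linker to the channel, stood at 283 and 323 CPM in the H3.3 pair, at 234 and 105 CPM in the K27R pair and at 422 and 383 CPM in the R26K pair. Both R26K libraries lay above the other 4, while K27R replicate 2 lay well below them. Nup188 was at 33.6 and 16.9 (H3.3), 39.2 and 3.98 (K27R) and 35.3 and 41.9 (R26K) CPM, and its K27R replicates differed 9.84-fold.

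Nup155 had 7.50 and 46.6 CPM in H3.3 eggs, 9.68 and 0.569 CPM in K27R eggs and 6.18 and 7.70 CPM in R26K eggs, and its groups overlapped. Nup205, a large partner of Nup93, was at 0 counts in both H3.3 libraries. It had 307 and 2 counts in the K27R pair, and 263 and 538 in the R26K pair. Nup205 passed the expression filter only with the R26K pair, so its values in that group are a description. Against a floor of 3 counts per H3.3 library, the level was at least 48.3-fold higher in R26K and 52.0-fold higher in K27R, the latter from 1 of its 2 libraries. These bounds cover counting error only, and reads of cDNA copied by PCR are not separate molecules. The test gave Nup205 an adjusted p of 0.218 in R26K and 0.522 in K27R (edgeR). Exons of Nup35 overlap Dusp19 and it has 1 near-identical copy, Gm4353, and exons of Nup188 overlap Gm28038 and Gm14471.

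The central channel is formed by Nup62, Nup54 and Nupl1 (now Nup58), whose coiled coils bind each other. Nup62 was measured at 215 and 132 (H3.3), 208 and 170.3 (K27R) and 523 and 525 (R26K) CPM. Both R26K libraries lay above the other 4, with a log2 fold change of 1.59 ± 0.34 against H3.3 (edgeR adjusted p = 0.11). With the correction for GC content and length that value turned to -0.24, and the transcript has 57.4% GC. Nup54 stood at 160.0 and 85.6 CPM in the H3.3 pair, at 111 and 187 CPM in the K27R pair and at 169.8 and 137 CPM in the R26K pair, with the groups overlapping. Nupl1 had 33.9 and 0 CPM in H3.3 eggs, 13.8 and 30.3 CPM in K27R eggs and 45.6 and 54.5 CPM in R26K eggs. Exons of Nup62 overlap those of Atf5 and Il4i1 and those of Nupl1 overlap Atp8a2, and Nup54 has 1 near-identical copy, Gm15790, so these counts are less certain.

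The 3 transmembrane nucleoporins did not pass the test. For each of them the R26K pair lay above the other 4, as it did for 27% of all tested genes. Pom121, which is needed for the fusion of the inner and outer membrane at new pores, was measured at 85.6 and 20.02 (H3.3), 54.2 and 20.1 (K27R) and 194 and 221 (R26K) CPM. Its log2 fold change against H3.3 was 1.98 ± 0.84 (edgeR adjusted p = 0.238) and 0.09 after the correction for GC content and length. It was 3.37 without H3.3 replicate 1 and 1.28 without H3.3 replicate 2. Ndc1 stood at 14.99 and 7.38 CPM in the H3.3 pair, at 33.2 and 2.94 CPM in the K27R pair and at 77.7 and 88.1 CPM in the R26K pair. Its log2 fold change was 2.89 ± 1.33 (edgeR adjusted p = 0.253). Nup210, known from differentiating muscle and neural cells, was the lowest of all members. Its counts summed to 1 (H3.3), 11 (K27R) and 455 (R26K), and its CPM in R26K was 162 times that in H3.3 (95% counting interval 28.9 to 6400.0). In R26K this still amounted to only 7.67 and 5.20 CPM, and Nup210 passed the expression filter through that group alone. Exons of Pom121 overlap those of Nsun5.

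On the cytoplasmic face 6 members were measured. Gle1, which with inositol hexakisphosphate activates the helicase that strips proteins from exported mRNA, had 438 and 292 CPM in H3.3 eggs, 478 and 373 CPM in K27R eggs and 871 and 776 CPM in R26K eggs. Both R26K libraries lay above the other 4, with a log2 fold change of 1.17 ± 0.30 against H3.3 (edgeR adjusted p = 0.163) and 0.44 after the correction for GC content and length. Its partner Nupl2 (now Nup42) was scarce, at 8.80 and 0 (H3.3), 2.52 and 0 (K27R) and 19.3 and 11.3 (R26K) CPM. Nup214, the docking site of that helicase, was at 61.3 and 124 (H3.3), 126 and 31 (K27R) and 142 and 176 (R26K) CPM, and its binding partner Nup88 at 269 and 462 (H3.3), 344 and 234 (K27R) and 317 and 261 (R26K) CPM. Nup214 was highest in R26K and Nup88 overlapped between the groups. Aaas, the gene of triple A syndrome, whose product is held at the pore by Ndc1, was measured at 107 and 80.7 (H3.3), 175 and 135 (K27R) and 148 and 98.2 (R26K) CPM. Its K27R pair lay above the H3.3 pair, with a log2 fold change of 0.72 ± 0.44 (edgeR adjusted p = 0.549). The R26K pair overlapped both.

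Ranbp2, a SUMO ligase that holds the GTPase-activating protein of Ran, had a wide gap between replicates. It had 1268 counts in H3.3 replicate 1 and 0 in H3.3 replicate 2, or 97.01 and 0 CPM. In K27R it was at 27.8 and 40.01 CPM and in R26K at 8.98 and 12.3 CPM, inside the range that the H3.3 pair spans. Exons of Nup88 overlap Rabep1 and those of Nup214 overlap Fam78a and others. Whether counting used the strand is not given in the sources used here, so reads of overlapping genes cannot be told apart.

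The nuclear basket has Tpr, its main filament, Nup153, which anchors it, and Nup50, a cofactor of importin alpha. Tpr stood at 143 and 199.7 CPM in the H3.3 pair, at 104 and 67.4 CPM in the K27R pair and at 224 and 215 CPM in the R26K pair. The K27R pair lay below and the R26K pair above the H3.3 pair. Nup153 had 36.7 and 224 CPM in H3.3 eggs, 131 and 26.9 CPM in K27R eggs and 83.8 and 115 CPM in R26K eggs. Nup50 was at 40.7 and 42.4 (H3.3), 20.2 and 68.4 (K27R) and 103 and 63.4 (R26K) CPM. The replicates of Nup153 differed 6.10-fold in H3.3 and 4.85-fold in K27R, which covers both R26K values. Exons of Tpr overlap those of Odr4 and Prg4.

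**Figure D4:**
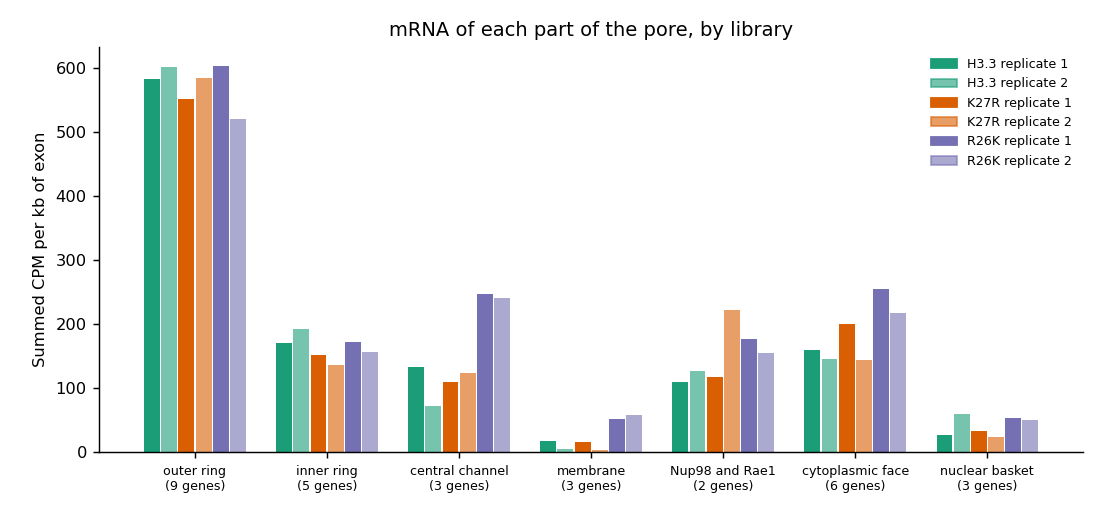
Summed CPM per kb of exon (y axis) of the members of each part of the pore, with 1 bar per library (dark bars replicate 1, light bars replicate 2). The outer ring bars lie between 519 and 602 in all libraries, while the channel is at 247 and 240.3, the membrane group at 51.3 and 58.0 and the cytoplasmic face at 255 and 217 in R26K, above the other 4, which does not hold for the basket. The sums are not corrected for GC content and length.

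Summed over each part of the pore, the outer ring was the most even. Its 9 genes summed to 519 to 602 CPM per kb of exon in the 6 libraries, and the inner ring to 136.5 to 192. The channel was at 133 and 72.1 in the H3.3 pair, 110.1 and 124 in the K27R pair, but 247 and 240.3 in the R26K pair. The membrane group had 18.4 and 5.09 in H3.3 eggs, 16.5 and 4.21 in K27R eggs, and 51.3 and 58.0 in R26K eggs. The Nup98 and Rae1 pair summed to 109.7 and 127 (H3.3), 117 and 221.5 (K27R), and 177 and 155 (R26K) per kb, and in plain CPM to 1213 and 1491 (H3.3), 1282 and 2552 (K27R), and 556 and 486 (R26K). The cytoplasmic face was at 160.2 and 146 (H3.3), 199.5 and 145 (K27R), and 255 and 217 (R26K) CPM per kb, and the basket at 27.2 and 59.6, 32.7 and 24.2, and 54.2 and 49.9 in that order. The R26K libraries lay above the other 4 for the channel, the membrane group and the cytoplasmic face, and not for the basket. The largest R26K means in these 3 parts were those of Nup62 (183.6 CPM per kb), Pom121 (37.2) and Gle1 (135). With the correction for GC content and length their log2 fold changes against H3.3 were -0.24, 0.09 and 0.44, while that of Ndc1 was 2.67. The sums themselves were not corrected, and the share of other gene groups so placed was not counted. In plain CPM all 31 members summed to 5547 and 5974 (H3.3), 5645 and 6398 (K27R), and 6306 and 5761 (R26K), and so overlapped between the groups. Without Nup98 the sums were 4377 and 4511, 4413 and 3906, and 6177 and 5647 CPM.

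Relative to H3.3, 22 of 31 members had a positive and 9 a negative log2 fold change in R26K, with a median of 0.61. Over all tested genes 61.3% were positive with a median of 0.66. Setting Nup205 at its bound left the members' median at 0.61. Upper-quartile scaling shifted the median of all genes from 0.66 to 0.47 and that of the members to 0.42. An unadjusted p under 0.05 was reached by 8 members (25.8%) against 21.7% of tested genes, close to the background. Nup205 and Nup210 are among these 8 and passed the expression filter only with the R26K pair. Both R26K libraries lay above the other 4 in 13 members (41.9%) and below them in 3 (9.68%), where all tested genes gave 27% and 8.54%. Among the 21 members with a mean of at least 50 CPM the median was 0.41, and among 2858 tested genes at that level it was 0.03. With the correction for GC content and length the median of all members was -0.125, and that of all tested genes 0.18. DESeq2 called 5 of the 30 members to which it gave an adjusted p (16.7%), namely Nup98, Rae1, Nup62, Gle1 and Nup205, where it called 18.7% of 8805 genes, so this count is near the background.

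**Figure D5:**
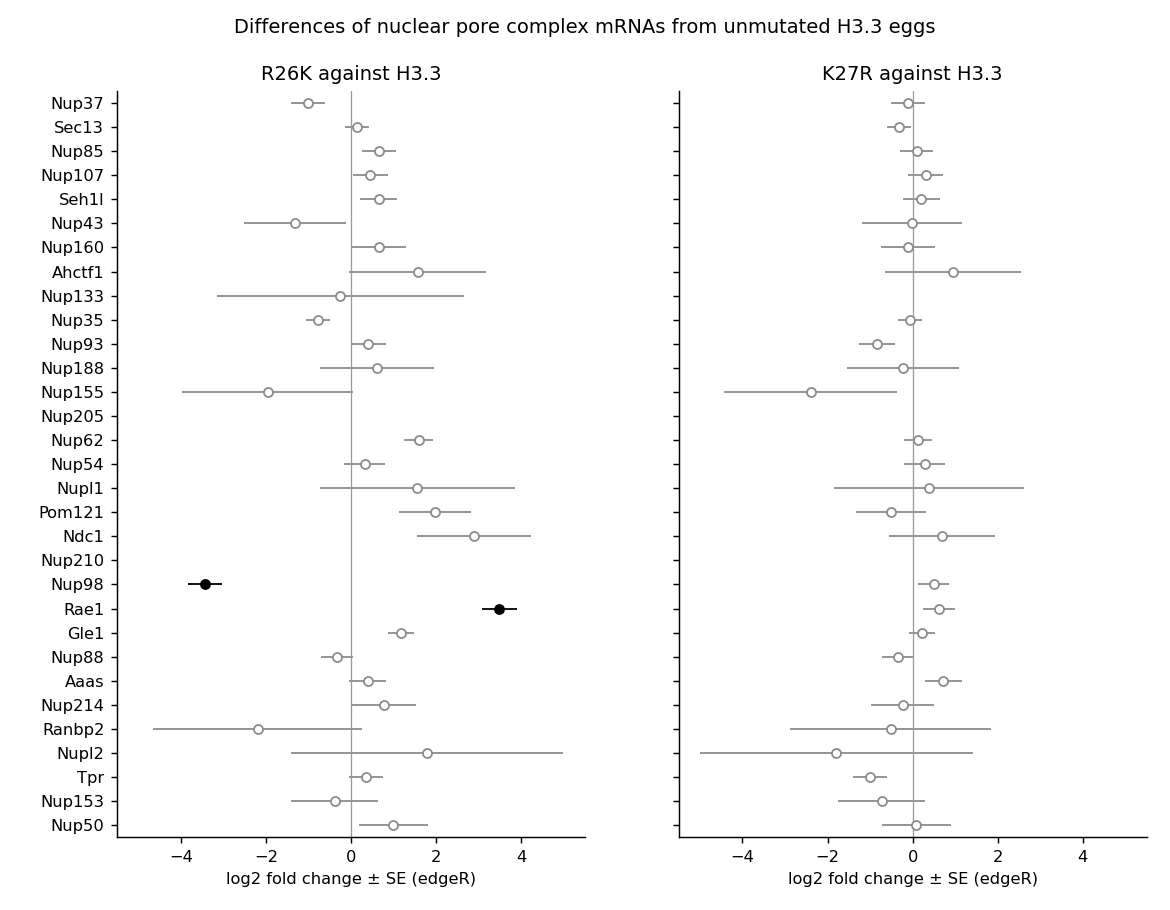
Log2 fold change with SE (x axis, edgeR) of each member in R26K (left) and K27R (right) against H3.3; filled points have an adjusted p under 0.05. Nup205 and Nup210 are left out of both panels and Nup133 of the right one, as 1 group had at most 1 count; Nup98 at -3.43 and Rae1 at 3.48 in R26K are the 2 filled points.

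In K27R eggs no member passed against H3.3, and 0.0% of all tested genes did (edgeR). An unadjusted p under 0.05 was reached by 2 members, Nup205 and Tpr (6.45%), against 7.12% of tested genes. DESeq2 called 1 of 31, Nup205 (3.23%), where it called 7.6% of 9012 genes. The log2 fold change was positive in 15 members and negative in 16, and its median was -0.02, where the median of all tested genes was 0.12. The sign of the members' median depended on the scaling, since it was 0.03 with upper-quartile scaling. Tpr had a log2 fold change of -1.0 ± 0.40 (edgeR adjusted p = 0.522), Nup93 of -0.84 ± 0.42 (0.522) and Rae1 of 0.63 ± 0.37 (0.543). Without K27R replicate 1 or 2 the value of Nup93 was -1.53 or -0.37, and without H3.3 replicate 1 or 2 that of Rae1 was 0.96 or 0.35. Nup98 had 0.50 ± 0.36 (edgeR adjusted p = 0.652) and was 0.92 without K27R replicate 1 and -0.10 without K27R replicate 2. Missing the threshold does not show that the levels were equal.

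Between K27R and R26K, the contrast that was in view when the members were chosen, Nup98 was at 1232 and 2492 against 129 and 114 CPM, a log2 difference of 3.93. Rae1 was at 49.5 and 60.6 against 426 and 372 CPM, a difference of -2.86. The count of members past the threshold was 1 higher in K27R, Nup98, and 0 lower, where 0.169% and 0.206% of all tested genes passed. DESeq2 called 4, Nup98, Rae1, Nup62 and Tpr, where it called 8.83% of genes. Nothing is read from these counts. This contrast shares its R26K libraries with the one against H3.3, so the 2 are not independent.

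The spread between replicates was smallest in R26K. The median absolute log2 difference of replicates, on log2(CPM + 0.5), was 0.70 (H3.3), 0.86 (K27R) and 0.30 (R26K) for members, and 0.85, 1.17 and 0.46 for tested genes. At a mean of at least 50 CPM it was 0.57, 0.63 and 0.24 for 21 members, and 0.66, 0.58 and 0.25 for tested genes. Replicates differed more than 4-fold on that scale in 9 members of the H3.3 pair, 8 of the K27R pair and 0 of the R26K pair, where 32.8%, 35.5% and 8.13% of tested genes did. Members without a count numbered 2 in H3.3 replicate 1 (Nup133 and Nup205), 5 in H3.3 replicate 2 (Nup205, Nupl1, Nup210, Ranbp2 and Nupl2) and 2 in K27R replicate 2 (Nup133 and Nupl2). The other 3 libraries had counts for all 31. Members were thus detected more often than tested genes in each of the 6 libraries. They were also more abundant, with 21 of 31 at a mean of at least 50 CPM against 2858 of 10667 tested genes. Detection was not compared at matched levels.

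The partners of the pore were measured from lists of importins, exportins, the Ran cycle, mRNA export and the nuclear envelope. Of 72 genes 68 were tested, and none passed in any of the 3 comparisons (edgeR). Against H3.3, an unadjusted p under 0.05 was reached by 15 in R26K (22.1%) and 7 in K27R (10.3%), beside 21.7% and 7.12% of all tested genes. DESeq2 called 11 (18.3%) and 6 (9.84%) of those with an adjusted p, beside 18.7% and 7.6% of all genes. The log2 fold change in R26K was positive in 8 of 17 importins, 6 of 7 exportins, 6 of 9 genes of the Ran cycle, 13 of 18 of mRNA export and 11 of 17 of the envelope, where it was positive in 61.3% of all tested genes. The gene with the smallest p in R26K is given for each list. Lbr, the lamin B receptor of the inner membrane, was at 1096 and 813 (H3.3), 999.8 and 840.5 (K27R) and 278 and 412 (R26K) CPM (edgeR adjusted p = 0.104). Eny2, of the TREX-2 export complex, was at 895 and 1060.1 (H3.3), 752 and 1016 (K27R) and 580.0 and 437 (R26K) CPM (0.207). Both lay lower in R26K than in the other 4 libraries.

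The importin Ipo9, the exportin Xpo7 and the export cofactor Ranbp3 had at most 2 counts in each H3.3 library. Ipo9 had 7.73 and 15.6 (K27R) and 25.8 and 13.7 (R26K) CPM. Xpo7 had 9.19 and 32.1 (K27R) and 21.4 and 42.6 (R26K) CPM, and Ranbp3 had 11.6 and 41.5 (K27R) and 54.6 and 33.6 (R26K) CPM. All 3 were thus detected in every K27R and R26K library. They were picked by the smallest p. The H3.3 libraries detected 67.3% and 65.4% of all tested genes, against 96.9% and 97% in R26K. The share of tested genes this scarce in H3.3 was not counted, so no trait of transport genes is read from these 3. The edgeR adjusted p of Ipo9, Xpo7 and Ranbp3 in R26K was 0.213, 0.155 and 0.146. The exportin list summed to only 8.57 to 169 CPM in a library, against 1497 to 2019 CPM for the importins.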

How the data were processed

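The members, lists and tests were chosen with earlier results of these data known. Per the labels' protocols, the SMARTer Ultra Low kit gave the cDNA, the Nextera kit the libraries, and reads were single and 50 bases long. Per the submitters' processing notes the authors used cutadapt 1.9.1, TopHat2 2.1.0, SAMtools 1.3 and featureCounts with mm10. Annotation, strand setting and multi-mapping are not given in the sources used here. Values deposited by the authors are raw counts of reads for 24062 gene symbols in 6 columns, each matched to its sample by title.

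Genes were kept by filterByExpr (10667) and tested with edgeR 4.0.16 (R 4.3.3), using glmQLFit and glmQLFTest on all 6 libraries together, with a mean for each of the 3 groups and 3 residual degrees of freedom. P-values are two-sided, with Benjamini-Hochberg adjustment over all tested genes and a threshold of 0.05. A standard error is the log2 fold change over the square root of F. The common dispersion was 1.63. Of the symbols 23692 matched GENCODE M21, by current or older names, including all 31 members. A near-identical copy is another gene aligned over at least 200 bases at 95% identity. Motif matches were counted on both strands in promoters and on the sense strand in 3′ ends.

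In the largest library 3 counts stand for 0.0814 CPM, in the smallest for 0.284 CPM. Alternatives were DESeq2 1.42.0 on the same genes, scaling by RLE or the upper quartile, no expression filter, a mean of at least 10 CPM, fits of the compared groups alone, a block for the replicate number, a robust spread, a loess correction for GC content and exon length (fitted per library over genes with at least 50 CPM), and leaving out each library. Every member is named with its values; of each transport list the gene with the smallest p is named. The steps were also run on simulated counts. Their dispersion was set well below the 1.63 of these data, so that run does not measure power or false calls here.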

Additional observations from a re-analysis of the deposited data

How the results depend on the processing

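The count of members called in R26K against H3.3 was 2. It was 5 with DESeq2, 0 in a fit of only the groups compared and 0 with the GC content and length correction, and 0 to 2 with 1 library left out (0 without H3.3 replicate 2 or either K27R library). The members' median log2 fold change in this comparison was -0.125 with that correction and 0.507 to 0.834 with 1 library left out. In K27R against H3.3 DESeq2 called 1 member in place of 0, and no member was called with a library left out; the median was then -0.115 to 0.369, the latter without H3.3 replicate 1. In K27R against R26K the count of 1 became 4 with DESeq2, 2 without a filter, 2 at a mean of at least 10 CPM, 0 with only the groups compared, 0 with the GC content and length correction and 0 to 2 with 1 library left out (0 without either K27R library); the median was -0.283 with the correction and -1.14 to -0.329 with 1 library left out. The log2 fold change of Nup62 in R26K turned to -0.240 under the correction, and that of Nup98 in K27R to -0.0972 without K27R replicate 2, its other values with 1 library left out reaching 0.921. Same-numbered replicates did not deviate together (correlations of -0.00719 to 0.0637 over 2858 genes). With 2 libraries per group this cannot decide whether the numbers pair the libraries. With the replicate number as a block 2 members were called in R26K and 0 in K27R against H3.3, and 2 in K27R against R26K, with a median of -0.965; over all genes the block moved the calls in R26K from 43 higher and 23 lower to 195 and 65. Calls over all genes also moved in R26K with DESeq2 (1218 and 426), without a filter (178 and 63), at a mean of at least 10 CPM (115 and 42), with only the groups compared (0 and 0) and with the correction (6 and 10). With 1 library left out they were 147 and 30 (without H3.3 replicate 1), 15 and 5 (without H3.3 replicate 2), 1 and 0 (without either K27R library), 137 and 56 (without R26K replicate 1) and 140 and 46 (without R26K replicate 2). They moved in K27R against H3.3 with DESeq2 from 0 to 533 and 152. Ranked per kb of annotated transcript instead of exon, a length chosen after seeing the data, the 3 highest members by the mean of all libraries were Nup37, Sec13 and Nup35. With a floor of 0.284 CPM the members detected numbered 28 and 26 in H3.3, 30 and 27 in K27R, and 31 in each R26K library. The cause of these changes was not tested. With 2 libraries per group the precision of every fold change is limited, and depth limits the scarce members most.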
